A study of Homo sapiens with 9 samples.

Results

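The shape of the mitochondrial network is set by proteins that join mitochondria and proteins that divide them, and 10 genes of that machinery were followed here in human neuroblastoma cells given a mimic of the microRNA miR-1229-3p. They were given as a list of names, namely MFN1, MFN2 and OPA1 (fusion), DNM1L, FIS1, MFF, MIEF1 and MIEF2 (fission), and OMA1 and YME1L1 (proteases that cut OPA1). All 10 were found among the 14943 genes of the expression table. None of the 10 passed the test against control cells, with 0 of 10 at 10 nM of the mimic beside 0.649% of all genes, and 0 of 10 at 20 nM beside 13.9% of all genes. The transcript nearest to the threshold was MIEF1, which encodes a fission receptor and was 11.4% higher at 20 nM (95% interval 2.31% to 21.2% higher, adjusted p = 0.0895 by edgeR's quasi-likelihood test with Benjamini-Hochberg adjustment, n = 3 libraries per group). Of 42 further genes that act on this machinery or beside it, 16 passed the test along the concentration series, beside 17.5% of all genes. These genes were listed with earlier results of these data known, so the count is a description and no evidence about such genes. That count was 9 without surrogate variables (8.27% of all genes) or without Ctrl. replicate 1 (11.8%), and 10 without Ctrl. replicate 3 (12.2%) or without 20 nM replicate 2 (9.16%). Without 20 nM replicate 1 it rose, to 13 regulators and 7 other proteases and scaffolds, beside 22.2% of all genes.

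Fusion of the outer membrane is carried out by the mitofusins MFN1 and MFN2, and fusion of the inner membrane by OPA1, a GTPase of the dynamin family. Division is carried out by DNM1L (also called DRP1), a cytosolic GTPase that forms rings around the organelle after being recruited by receptors on the outer membrane. The proteases OMA1 and YME1L1 convert long forms of OPA1, which drive fusion, into short forms. In neurons this balance governs how mitochondria are sized for transport along axons and dendrites.

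SH-Sy5y, a neuroblastoma cell line, was transfected for 48 h in 3 groups of 3 libraries each, in order to find transcripts on which miR-1229-3p acts directly. Ctrl. cells received 40 pmol of a negative control oligonucleotide. The 10 nM group received 20 pmol of the miR-1229-3p precursor together with 20 pmol of the control, and the 20 nM group 40 pmol of the precursor and 0 pmol of the control, so that the control oligonucleotide fell as the mimic rose. All groups share this 1 cell line, its medium and the transfection reagent, replicates were extracted together, and polyadenylated RNA was sequenced. The labels do not say that replicates came from separate cultures, so p-values measure only the spread between these libraries, which may be technical. In whole cell populations, fewer cells expressing a gene and less RNA per cell cannot be told apart.

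Libraries held 17423805 to 28192613 estimated counts. The third library of the 20 nM group stood apart: on the main axis of variation over all genes, which held 30.4% of the variance, its coordinate was 47.4, whereas the remaining 8 libraries ranged from -17.1 to 7.72. It was the highest or the lowest of the 9 libraries for 59.7% of all genes, and for 8 of the 10 genes described here. The cell line was checked against 13 noradrenergic neuroblastoma markers, of which 12 exceeded 10 CPM (counts normalised to the size of the library) in every library, with summed levels of 7092 to 7228 CPM in Ctrl., 7396 to 7983 CPM at 10 nM and 7055 to 8328 CPM at 20 nM. TH, which encodes the rate-limiting enzyme of catecholamine synthesis, stayed under 1 CPM in every library. Of 8 markers of mesenchymal neuroblastoma cells, 7 were in the table and 4 exceeded 10 CPM in every library, with summed levels of 1518 to 1643, 1523 to 1650 and 1569 to 1601 CPM in the same order. The part of any of these differences in the results below was not tested, but each result that rests on the library standing apart is given with and without it, or library by library.

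A microRNA represses mainly through its seed, the bases 2 to 8 of its mature sequence, which pair with complementary sites in 3′ UTRs. The mature sequence of miR-1229-3p is shown first with its seed in capitals (RefSeq, GRCh38.p14, chr5:179798278-179798300, minus strand, 23 bases, 5′ to 3′). The sites below it lie in the 3′ UTRs of MFN2, the gene with the longest match, and MIEF1, the gene nearest to the threshold. Each has 11 bases on either side and the motif in capitals, read from the sense strand of the transcript in the GENCODE 44 annotation of GRCh38.p14. The last capital A of MFN2 lies opposite the base before the seed, so both sites pair with the same seed bases.
miR-1229-3p: cUCUCACCacugcccucccacag
MFN2: gtgttgactgtGTGAGAAaagcagtttgg
MIEF1: gccataggaatGTGAGAggggtgtttgc

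Of the 10 genes, 1 held a 7-mer match, 2 held 6-mer matches as their strongest, and 7 held no match in their longest 3′ UTR. The motifs searched on the transcript strand were GGTGAGAA (8-mer), GGTGAGA and GTGAGAA (7-mers) and GTGAGA (6-mer), each longer motif containing the 6-mer and being counted once under its longest form. The last A of GGTGAGAA and of GTGAGAA lies opposite the base before the seed and does not pair with the seed. Among 13779 genes of the table with a 3′ UTR of at least 50 bases, 22.6% held an 8-mer or a 7-mer and 61.6% held none. The single 7-mer among the 10 lay in the last exon of MFN2 (chr1:12012811-12012817, plus strand, exon 19 of 19). The MIEF1 site shown lay at chr22:39515442-39515447 (plus strand, exon 6 of 6). These counts were the same in the canonical transcripts. A match describes letters only, and whether any of these sites is bound was not measured.

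Measured per kilobase of the canonical transcript, FIS1 was the highest of the 10 transcripts in Ctrl. cells, at 97.7 ± 3.0 CPM per kb (SD, n = 3, as for all levels below). YME1L1 followed at 50.2 ± 0.723 and MFN2 at 34.5 ± 1.01 CPM per kb. MFF (24.7 ± 1.04) and DNM1L (23.3 ± 0.651) came next and overlapped between libraries. MFN1 (18.5 ± 0.967), OPA1 (16.2 ± 0.902), MIEF1 (9.09 ± 0.0835), MIEF2 (4.99 ± 0.118) and OMA1 (2.45 ± 0.429) completed the order. Apart from MFF and DNM1L, neighbours in this order did not overlap between Ctrl. libraries. OMA1 rested on only 67.6 to 124.9 estimated counts per library, against 1622 to 2882 for MFN1. Counts had been summed by gene symbol, so that splice forms, such as those of OPA1 and DNM1L, cannot be seen.

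Among the fusion genes, none passed the test in any comparison, and their levels in the 3 groups overlapped. All CPM, those above included, are scaled by TMM, a correction for library composition. Levels of single libraries are given in the order of replicates 1, 2 and 3.

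MFN1 (chr3:179347709-179394936, plus strand) encodes an outer membrane mitofusin that tethers neighbouring mitochondria. It measured 101.9, 91.85 and 95.78 CPM in Ctrl., 98.93, 96.33 and 92.69 CPM at 10 nM, and 100.3, 91.43 and 82.33 CPM at 20 nM. The lowest of the 9 values was that of the 20 nM library standing apart, and the groups overlapped. The fitted log2 fold change was 0.02 (SE 0.0468, adjusted p = 0.905) at 10 nM and 0.01 (SE 0.0532, adjusted p = 0.901) at 20 nM in edgeR, a model in which variation between libraries not explained by group is taken up by a surrogate variable.

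MFN2 (chr1:11980181-12015211, plus strand), the mitofusin that also links mitochondria to the endoplasmic reticulum, measured 150.7, 148.6 and 157.1 CPM in Ctrl. At 10 nM it measured 155.3, 156.8 and 165.1 CPM, and at 20 nM 152.8, 155.7 and 171.4 CPM. Each treated library lay above the Ctrl. library of the same replicate number, in 6 of 6 comparisons that share the 3 Ctrl. libraries, as for 14.1% of all genes, while the groups overlapped. The size was small, with a log2 fold change of 0.05 (SE 0.0398, adjusted p = 0.65) at 10 nM and 0.0035 (SE 0.0453, adjusted p = 0.973) at 20 nM in edgeR. MFN2, with the 7-mer shown above, was not detectably lower in mimic-treated cells, and the interval of the change at 20 nM reached from -6.35% to 7.3%.

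OPA1 (chr3:193593144-193697811, plus strand) fuses inner membranes and shapes cristae. Its levels were 98.21, 105.1 and 109.7 CPM in Ctrl., 106, 100.2 and 106.9 CPM at 10 nM, and 110.1, 106.2 and 87.84 CPM at 20 nM. The 20 nM group held both the highest and the lowest of the 9 values. The log2 fold change at 20 nM was 0.06 (SE 0.0613, adjusted p = 0.574 in edgeR), and 0.06 (SE 0.0438, adjusted p = 0.376) without the 20 nM library that stands apart.

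**Figure D1:**
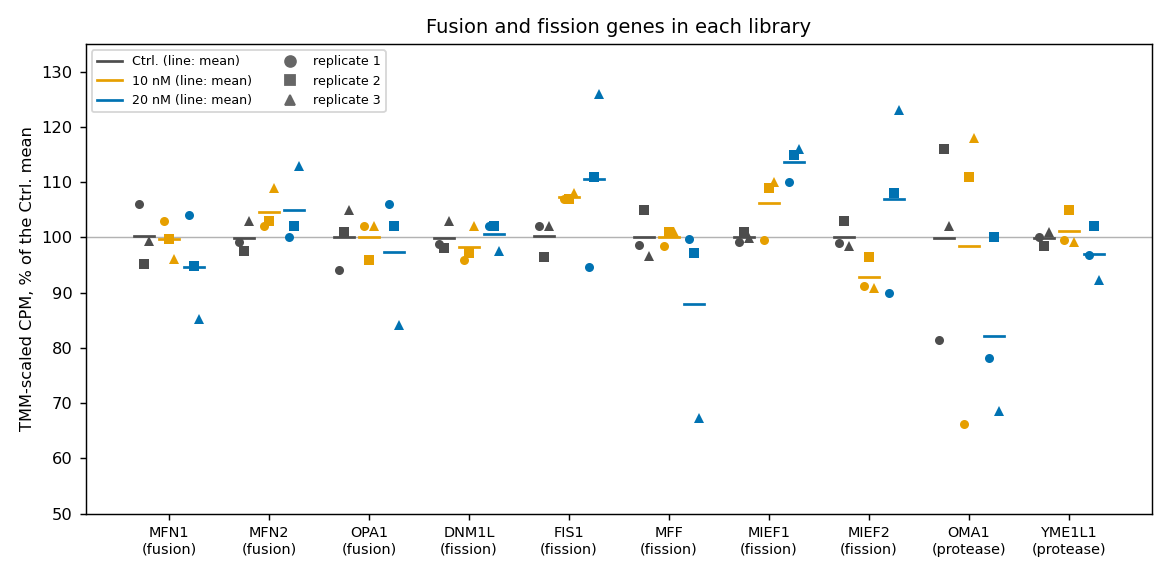
TMM-scaled CPM of each of the 10 genes in each library, as a percentage of the gene's Ctrl. mean (vertical axis, linear, not starting at 0), with colours for Ctrl., 10 nM and 20 nM, symbols for replicate numbers and a line at each group mean. Most points lie close to 100%, the third 20 nM library is the highest or lowest for 8 of 10 genes, and MIEF1 is the gene whose 20 nM libraries all lie above its Ctrl. libraries.

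The fission genes were likewise not past the threshold, and MIEF1 came nearest to it. DNM1L (chr12:32679200-32745650, plus strand), the GTPase that constricts mitochondria, had the smallest spread of the 10 between 20 nM libraries, with a coefficient of variation of 2.31%. It measured 103.7, 102.9 and 108.4 CPM in Ctrl., 100.7, 102 and 107.3 CPM at 10 nM, and 106.7, 106.6 and 102.4 CPM at 20 nM. The log2 fold change was -0.02 (SE 0.0439, adjusted p = 0.872) at 10 nM and 0.02 (SE 0.0497, adjusted p = 0.882) at 20 nM in edgeR, with an interval of the change at 20 nM from -6.17% to 8.94%. DNM1L overlaps YARS2 in the annotation, and use of strand in counting is not stated, so reads of these genes may have been exchanged.

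FIS1 (chr7:101239458-101252316, minus strand) encodes a small anchor protein of the outer membrane. It measured 86.69, 82.01 and 86.36 CPM in Ctrl. and 90.63, 91.04 and 92.01 CPM at 10 nM, so that these groups did not overlap. At 20 nM it spread over 80.43, 94.1 and 107.3 CPM, below, above and further above the Ctrl. range. The log2 fold change was 0.07 (SE 0.0518, adjusted p = 0.594) at 10 nM, 0.0095 (SE 0.059, adjusted p = 0.942) at 20 nM and 0.05 per 20 nM (SE 0.0584, adjusted p = 0.614) along the concentration series. Without the first 20 nM library, where 1 surrogate variable was used and not 2, the last of these was 0.19 (SE 0.0508, adjusted p = 0.0178), the single alternative in which FIS1 passed.

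MFF (chr2:227325151-227357833, plus strand) encodes the main receptor that brings DNM1L to mitochondria. It was at 46.86, 49.74 and 45.92 CPM in Ctrl., 46.76, 48.02 and 47.95 CPM at 10 nM, and 47.37, 46.15 and 31.97 CPM at 20 nM. Only the third 20 nM library was low, and it pulled the group mean to 41.83 ± 8.56 CPM against 47.5 ± 1.99 CPM in Ctrl. The log2 fold change fitted at 20 nM with the surrogate variable was 0.0037 (SE 0.0661, adjusted p = 0.98 in edgeR), and it was -0.03 (SE 0.051, adjusted p = 0.759) without that library. Along the series it was -0.09 per 20 nM (SE 0.0591, adjusted p = 0.319).

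MIEF1 (chr22:39499432-39518132, plus strand) encodes an outer membrane receptor for DNM1L that can also hold it inactive. It measured 51.28, 52.22 and 51.65 CPM in Ctrl., 51.5, 56.3 and 56.75 CPM at 10 nM, and 56.79, 59.61 and 59.76 CPM at 20 nM. All 20 nM libraries lay above all Ctrl. and all 10 nM libraries, whereas the 10 nM group overlapped with Ctrl. through its first library. Group means were 51.72 ± 0.475, 54.85 ± 2.91 and 58.72 ± 1.67 CPM, and the treated library was the higher in 6 of 6 same-numbered comparisons, again as for 14.1% of all genes.

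The log2 fold change of MIEF1 was 0.08 (SE 0.0504, adjusted p = 0.532) at 10 nM and 0.16 (SE 0.0565, adjusted p = 0.0895) at 20 nM in edgeR. Between 20 nM and 10 nM it was 0.08 (SE 0.0537, adjusted p = 0.552). With concentration as a number it was 0.15 per 20 nM (SE 0.0513, adjusted p = 0.0553), or 11.1% higher with an interval of 2.97% to 19.9%. With a block for the replicate number in place of the surrogate variables, which the pairing of Ctrl. and treated libraries allows, the trend was 0.18 (SE 0.0538, adjusted p = 0.0425) and thus past the threshold of 0.05.

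MIEF1 kept its direction at 20 nM and in the trend in every alternative processing tried, but not its call. The trend was past the threshold in 6 of 19 alternatives (adjusted p from 0.0353 to 0.227) and the difference between 20 nM and Ctrl. in 2 of 20 (adjusted p from 0.0143 to 0.381). Without the third 20 nM library the difference at 20 nM was 0.16 (SE 0.0475, adjusted p = 0.0143) with 2 surrogate variables, and 0.17 (SE 0.0562, adjusted p = 0.0578) with the 1 surrogate variable used otherwise. The trend was also past the threshold without the first 10 nM library or without the first 20 nM library (adjusted p = 0.0353 and 0.039), but these fits took 1 surrogate variable in place of 2, and with 1 and all 9 libraries it was past already (adjusted p = 0.041). Without the second 20 nM library, also with 1, it was furthest from the threshold (log2 fold change 0.13, SE 0.0625, adjusted p = 0.227).

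**Figure D2:**
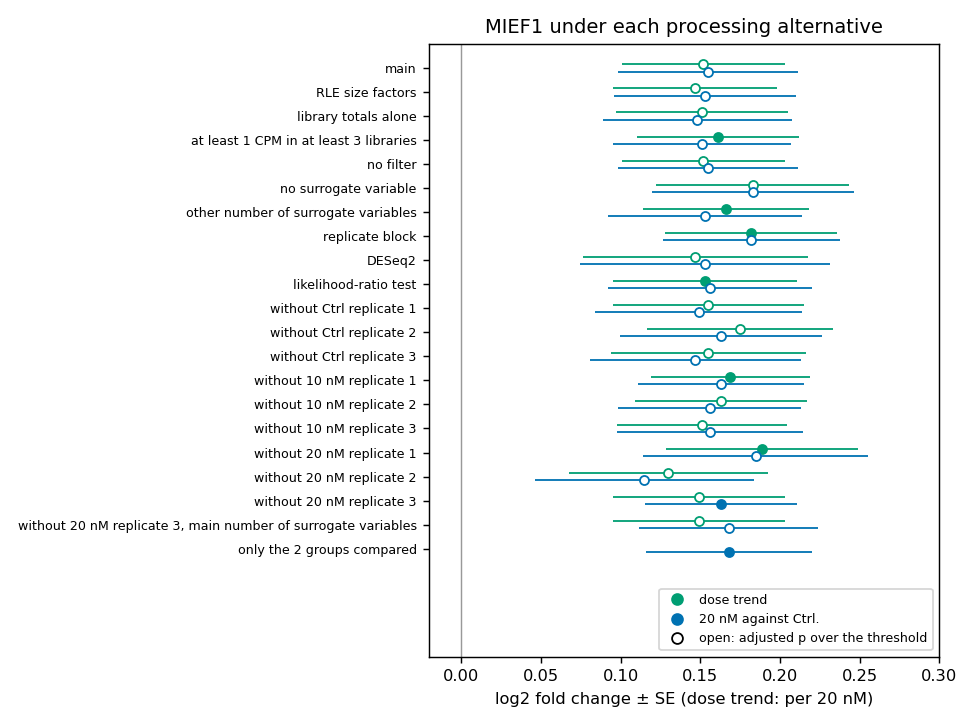
Log2 fold change of MIEF1 with its standard error (horizontal axis; the dose trend is per 20 nM) under the main processing and each alternative (rows), for the dose trend in green and 20 nM against Ctrl. in blue, with filled points where the adjusted p is under 0.05. All points lie between 0.115 and 0.189, and 6 green and 2 blue points are filled.

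The 3 genes whose profile over the 9 libraries was most like that of MIEF1, by root-mean-square difference of centred log2 CPM, were PGAM1 (0.0294), HM13 (0.032) and ILVBL (0.033), against a median of 0.17 over all genes. PGAM1 encodes a phosphoglycerate mutase of glycolysis and rose from 441 CPM in Ctrl. to 468 and 503 CPM at 10 and 20 nM (log2 fold change 0.14 per 20 nM, adjusted p = 0.0498 in edgeR). HM13, which encodes a peptidase of the endoplasmic reticulum membrane, averaged 110, 118 and 125 CPM (0.15 per 20 nM, adjusted p = 0.0521). ILVBL averaged 54, 58.3 and 60.4 CPM (0.12 per 20 nM, adjusted p = 0.128). Because these genes were chosen for their likeness to MIEF1 in the same libraries, their rise follows from that choice. Their adjusted p are given as description and are no separate evidence of an effect of the mimic.

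MIEF2 (chr17:18260597-18266552, plus strand, matched by symbol), which encodes the related receptor, was not tested against MIEF1. It measured 15.97, 16.6 and 15.9 CPM in Ctrl. and 14.73, 15.59 and 14.69 CPM at 10 nM, where every library lay below Ctrl. At 20 nM it spread over 14.52, 17.37 and 19.81 CPM, on both sides of Ctrl. The log2 fold change was -0.14 (SE 0.082, adjusted p = 0.472) at 10 nM and -0.05 (SE 0.0921, adjusted p = 0.805) at 20 nM in edgeR. Along the series the interval of MIEF2 reached from -12.8% to 15.3%, which includes the 11.1% of MIEF1. The log2 ratio of MIEF1 to MIEF2 in CPM averaged 1.67 ± 0.023 (Ctrl.), 1.86 ± 0.0733 (10 nM) and 1.77 ± 0.186 (20 nM), which is given as a description without a test. Its 20 nM values were 1.96, 1.77 and, in the library standing apart, 1.59.

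Neither protease passed the test. YME1L1 (chr10:27110111-27155266, minus strand), an ATP-dependent protease of the inner membrane, measured 211.1, 207.3 and 213.3 CPM in Ctrl., 209.5, 220.5 and 208.6 CPM at 10 nM, and 203.9, 214.7 and 194.3 CPM at 20 nM. The groups overlapped, and the log2 fold change at 20 nM was -0.0081 (SE 0.0488, adjusted p = 0.94 in edgeR), with an interval from -7.58% to 6.99%. YME1L1 overlaps MASTL in the annotation.

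OMA1 (chr1:58415384-58546802, minus strand), a metalloprotease that is activated when the inner membrane loses its potential, was the least precise of the 10. It measured 3.711, 5.298 and 4.655 CPM in Ctrl., 3.017, 5.067 and 5.372 CPM at 10 nM, and 3.557, 4.559 and 3.12 CPM at 20 nM, and the groups overlapped. Its log2 fold change was -0.22 (SE 0.263, adjusted p = 0.633) at 20 nM and -0.35 per 20 nM (SE 0.208, adjusted p = 0.274) along the series. The interval of the trend reached from -42.5% to 6.82%, the widest of the 10, and at this depth a smaller change of OMA1 was not detectable. OMA1 lies within the annotated span of DAB1, another tested gene.

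**Figure D3:**
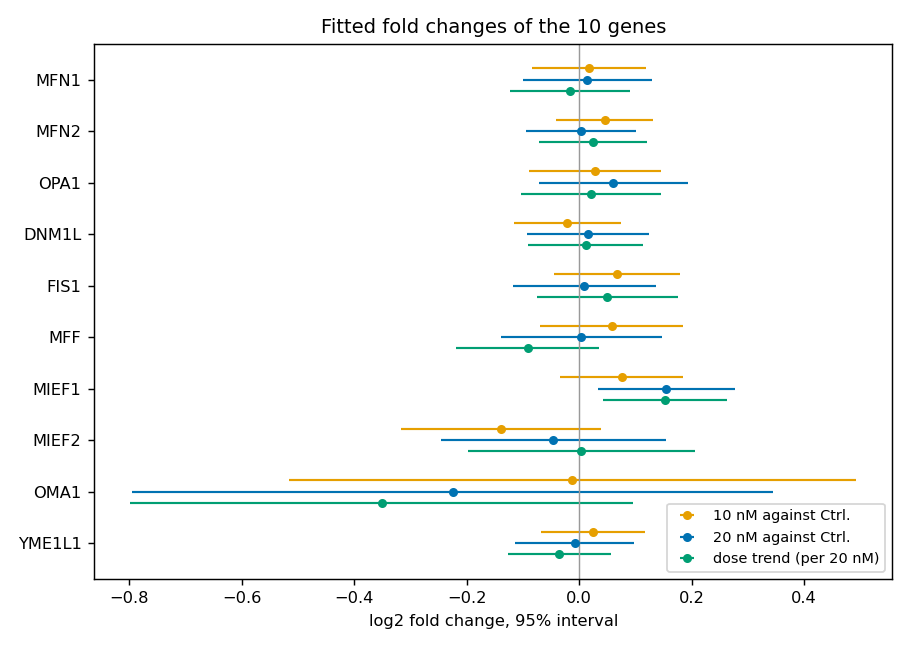
Fitted log2 fold change of each of the 10 genes with its 95% interval (horizontal axis), for 10 nM against Ctrl. (orange), 20 nM against Ctrl. (blue) and the dose trend per 20 nM (green). Intervals of MIEF1 at 20 nM and in the trend lie above 0, all others span 0, and those of OMA1 are the widest.

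Read together by count, 0 of the 10 genes passed the test at 10 nM, where 0.649% of all genes did, and 0 of 10 at 20 nM, where 13.9% of all genes did. The same was found between 20 nM and 10 nM (0 of 10, all genes 2.79%), where log2 fold changes ran from -0.21 (OMA1) to 0.09 (MIEF2) with adjusted p of 0.552 to 0.988 in edgeR. In the dose trend it was 0 of 10 (all genes 17.5%), with adjusted p of 0.0553 to 0.982. At an unadjusted p under 0.05 the counts were 0, 1, 0 and 1, the 1 being MIEF1, against 13.9%, 28%, 14.9% and 30.8% of all genes. DESeq2 also called 0 in each comparison, but at 10 nM against Ctrl. it gave no adjusted p for MIEF2 and OMA1. Libraries of the 10 nM group did not overlap with Ctrl. for 2 of 10 genes, namely FIS1 and MIEF2, as for 20% of all genes. Libraries of the 20 nM group did not overlap with Ctrl. for 1 of 10 genes, namely MIEF1, as for 28.9% of all genes.

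The fold changes of the 10 genes were small in size in the main fit, which took 1 surrogate variable. Their median absolute log2 fold change was 0.0372 at 10 nM and 0.0151 at 20 nM, against 0.0835 and 0.13 over all genes, and their median standard errors were 0.0511 and 0.0578 against 0.0755 and 0.0851. Without surrogate variables, log2 fold changes at 20 nM were larger in size for all of the 10 but OPA1 and DNM1L. Those of MFF and FIS1 were then -0.183 (SE 0.123) and 0.144 (SE 0.0902). Medians over all genes are not given for that fit. Leaving OMA1 aside, the 95% intervals of the other 9 genes in the main fit lay within changes of -19.7% and 13.7% at 10 nM, and of -15.6% and 21.2% at 20 nM. A p over the threshold does not show that a gene was unaffected, and these intervals give the changes left possible under the main fit only. With the replicate block, the log2 fold change of MFF at 20 nM was -0.195 (SE 0.109), against 0.0037 (SE 0.0661) in the main fit. The limits therefore depend on the fit.

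The balance of fusion to fission transcripts was also described. It was taken as the mean log2 CPM of the fusion genes minus that of the fission genes, not as a ratio of summed levels. This difference averaged 1.17 ± 0.0382 (Ctrl.), 1.17 ± 0.0452 (10 nM) and 1.11 ± 0.109 (20 nM). Its 20 nM values were 1.23, 1.07 and, in the library standing apart, 1.02, and spanned the whole Ctrl. range of 1.13 to 1.2. Within the mitofusins, the log2 ratio of MFN2 to MFN1 averaged 0.657 ± 0.0808 (Ctrl.), 0.728 ± 0.0936 (10 nM) and 0.811 ± 0.228 (20 nM), with overlapping groups. Its 20 nM values were 0.608, 0.768 and, in the library standing apart, 1.06.

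Beyond the core machinery, 27 genes known to act on it were examined as regulators, listed with earlier results of these data known, so that their counts are description. Of these, 0 passed edgeR's test at 10 nM and 0 between 20 nM and 10 nM, beside 0.649% and 2.79% of all genes. At an unadjusted p under 0.05 they were 6 and 5, beside 13.9% and 14.9% of all genes, and DESeq2 called 0 in both. The likelihood-ratio test called 2 and 1 (2.61% and 5.07% of all genes), and the fit with only the groups compared called 4 at 10 nM (7.26%). The fit without the third 20 nM library called 6 and 3 with 2 surrogate variables (8.82% and 10%) but 0 and 0 with 1 (1.07% and 3.09%). At 20 nM against Ctrl. 8 passed, beside 13.9% of all genes, of which 5 were higher and 3 lower. This count was 4 without 20 nM replicate 2 (7.19% of all genes) and 5 without Ctrl. replicate 1 (10.1%). Without 20 nM replicate 3 it was 12 with 2 surrogate variables (29.2%) and 8 with 1 (17.8%). In the dose trend 10 of 27 passed (37%, beside 17.5% of all genes), of which 6 rose and 4 fell, with a median log2 fold change of 0.0216 over the list and -0.000721 over all genes. The 8 with the smallest adjusted p are described next by their role, each tested in edgeR along the concentration series.

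SLC25A46, an outer membrane member of the solute carrier family that is mutated in hereditary optic atrophy with neuropathy, showed the steepest rise. It measured 47.96, 49.79 and 53.77 CPM in Ctrl., 57.36, 58.95 and 60.35 CPM at 10 nM, and 69.47, 64.98 and 68.51 CPM at 20 nM. The groups were ordered by concentration without overlap, and the log2 fold change was 0.41 per 20 nM (SE 0.0568, adjusted p = 0.000333).

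MTFP1, an inner membrane protein that promotes fission, measured 36.26, 35.68 and 38.84 CPM in Ctrl., 37.93, 42.9 and 41.43 CPM at 10 nM, and 43.1, 48.34 and 66.93 CPM at 20 nM. It rose by 0.34 on the log2 scale per 20 nM (SE 0.0602, adjusted p = 0.00185). The library standing apart was much the highest, and without it the log2 fold change was 0.28 (adjusted p = 0.0119).

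MIGA1 and PLD6, a mitoguardin and the phospholipase it acts through in fusion, both rose. MIGA1 measured 23.01, 21.46 and 25.47 CPM in Ctrl., 24.93, 26.46 and 24.23 CPM at 10 nM, and 30.93, 30.71 and 27.03 CPM at 20 nM (log2 fold change 0.38 per 20 nM, SE 0.082, adjusted p = 0.00639). PLD6 measured 20.32, 21.95 and 21.49 CPM in Ctrl., 22.71, 24.32 and 24.57 CPM at 10 nM, and 25.9, 25.89 and 29.38 CPM at 20 nM (0.29 per 20 nM, SE 0.0662, adjusted p = 0.00873). For both, every 20 nM library lay above every Ctrl. library.

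INF2, a formin on the endoplasmic reticulum that builds actin at sites of division, rose from 64.99 ± 4.26 CPM in Ctrl. to 72.06 ± 1.43 CPM at 10 nM and 80.95 ± 8.02 CPM at 20 nM (0.25 per 20 nM, SE 0.0553, adjusted p = 0.00711). Libraries of both mimic groups lay above all Ctrl. libraries, the lowest at 70.53 CPM against a highest Ctrl. value of 69.74 CPM. The rise was 0.23 (adjusted p = 0.0109) without the library standing apart.

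RALA, a small GTPase that helps bring DNM1L to mitochondria in mitosis, fell by concentration. It measured 102.1, 108.5 and 103.7 CPM in Ctrl., 92.8, 98.97 and 90.12 CPM at 10 nM, and 84.16, 90.92 and 81.28 CPM at 20 nM. The Ctrl. group was above both others without overlap, and the log2 fold change was -0.29 per 20 nM (SE 0.0517, adjusted p = 0.00202).

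SENP5, a protease that removes SUMO from DNM1L, and GDAP1, an outer membrane protein of fission mutated in Charcot-Marie-Tooth neuropathy, also fell. SENP5 measured 57.82, 54.65 and 57.83 CPM in Ctrl., 49.77, 50.44 and 46.58 CPM at 10 nM, and 47.21, 46.83 and 43.23 CPM at 20 nM (-0.28 per 20 nM, SE 0.0574, adjusted p = 0.00474). GDAP1 averaged 126.4 ± 4.1, 114.9 ± 5.46 and 106.2 ± 2.15 CPM (-0.24 per 20 nM, SE 0.0449, adjusted p = 0.00276), and its groups did not overlap. These 8 regulators were past the threshold of the trend in all 19 alternatives. Among them SLC25A46, PLD6 and GDAP1 overlap TMEM232, MPRIP and JPH1 in the annotation, with the same limit as for DNM1L.

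The remaining regulators of the 10 that passed, named after their values were seen, were less stable. CDK1, the mitotic kinase that phosphorylates DNM1L, measured 100.1 ± 1.78 CPM in Ctrl. and 89.74 ± 3.39 CPM at 10 nM, and at 20 nM 91.98, 92.94 and 49.84 CPM. Its log2 fold change was -0.20 per 20 nM (SE 0.0584, adjusted p = 0.0293) but -0.10 (adjusted p = 0.15) without the library standing apart. The call was also lost without Ctrl. replicate 1, Ctrl. replicate 3 or 10 nM replicate 2 (adjusted p up to 0.202), and in the fit without surrogate variables. With the replicate block the trend of CDK1 was -0.39 (adjusted p = 0.088), and that of SPIRE1 was 0.17 (adjusted p = 0.0656). SPIRE1, an actin nucleator that works with INF2, changed by 0.19 per 20 nM (SE 0.0577, adjusted p = 0.0321) and was past the threshold in 8 of 19 alternatives (adjusted p up to 0.156), among them those without 10 nM replicate 3 or without 20 nM replicate 3 but none of the other fits that left out a library.

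Seed matches among these regulators are shown for the genes that fell, with a match of 7 or 8 letters in capitals, because these were the called regulators that were lower in mimic-treated cells. RALA held an 8-mer in the last exon (chr7:39706928-39706935, plus strand, exon 5 of 5), and SENP5 held a pair of 7-mers in its last exon (chr3:196931482-196931488 and chr3:196931573-196931579, plus strand, exon 10 of 10).
RALA: ccatgtgtcctGGTGAGAAaatatatgcct
SENP5, upstream site: tccttttgaagGGTGAGAtggaagtggtc
SENP5, downstream site: aggagtaaggtGTGAGAAaaagcaacctt

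GDAP1 held an 8-mer in its longest 3′ UTR and a 6-mer in that of its canonical transcript, and CDK1 held no match. Of the regulators that rose, INF2 held a 7-mer, SLC25A46 and MIGA1 held 6-mers, and MTFP1, PLD6 and SPIRE1 held none. Over the list, 6 of 27 genes held an 8-mer or a 7-mer, beside 22.6% of all genes. A 7-mer was also present in CDK5 and PPP2R2B, named after their values were seen, for which the adjusted p of the trend was 0.775 and 0.699.

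**Figure D4:**
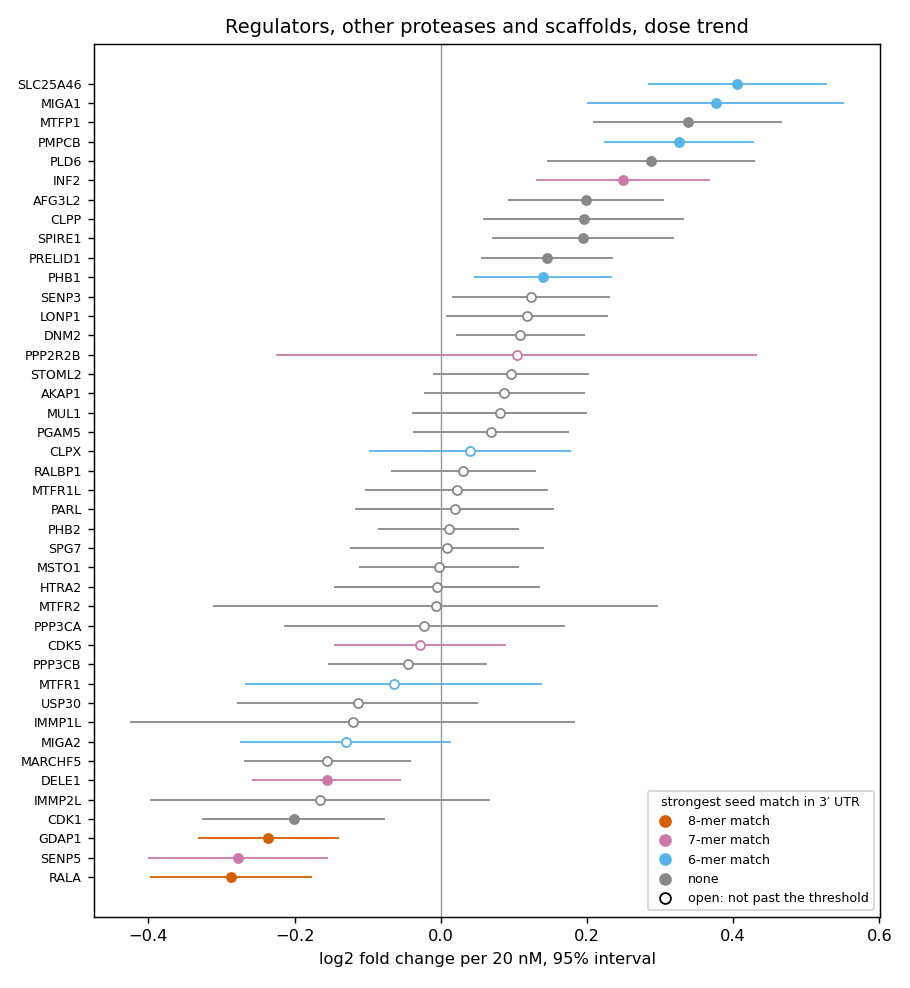
Log2 fold change per 20 nM with its 95% interval (horizontal axis) for the 27 regulators and 15 other proteases and scaffolds, sorted by value, with filled points past the adjusted threshold and colours for the strongest seed match in the longest 3′ UTR. Filled points lie at both ends, and the 3 lowest genes (RALA, SENP5, GDAP1) hold 8-mer or 7-mer matches, as does INF2 among those that rose.

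The 15 other proteases and scaffolds of the inner membrane and matrix are the neighbours of OMA1 and YME1L1, and were listed in the same way as the regulators. They gave 0 calls at 10 nM, 1 at 20 nM and 1 between 20 nM and 10 nM, beside 0.649%, 13.9% and 2.79% of all genes. Both calls were PMPCB. At 10 nM, 4 had an unadjusted p under 0.05, beside 13.9% of all genes, and DESeq2 called 0. The count at 20 nM was 6 with only those groups in the fit (17.3% of all genes). Without 20 nM replicate 3 it was 7 with 2 surrogate variables (29.2%) and 3 with 1 (17.8%). In the dose trend 6 of 15 passed (40%, beside 17.5% of all genes), of which 5 rose and 1 fell, with a median log2 fold change of 0.04. The count of the trend was 1 without surrogate variables, where 8.27% of all genes passed. It was 1 without Ctrl. replicate 1 (11.8% of all genes) or without 20 nM replicate 2 (9.16%), and 2 without Ctrl. replicate 3 (12.2%). It was 3 without 20 nM replicate 3 (18.5%) or with the replicate block (16.4%), and 7 without 20 nM replicate 1 (22.2%). PMPCB, the catalytic subunit of the peptidase that removes import signals in the matrix, measured 97.75, 101.2 and 96.75 CPM in Ctrl., 104, 108.8 and 105.8 CPM at 10 nM, and 123.9, 120.7 and 133.5 CPM at 20 nM. Its groups were ordered by concentration without overlap (0.33 per 20 nM, SE 0.0479, adjusted p = 0.000468), and the trend was past the threshold in all 19 alternatives.

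AFG3L2, a subunit of the matrix-facing AAA protease, averaged 71.81 ± 0.88, 74.99 ± 4.09 and 83.94 ± 5.34 CPM (0.20 per 20 nM, SE 0.0495, adjusted p = 0.0135). The rises of CLPP, a matrix protease (0.20, adjusted p = 0.0498), of the prohibitin gene PHB1 (0.14, adjusted p = 0.0414) and of PRELID1, which encodes a lipid transfer protein (0.15, adjusted p = 0.0279), did not hold without the third 20 nM library, where their log2 fold changes were 0.13, 0.09 and 0.08, with adjusted p of 0.121, 0.134 and 0.192. The calls of these genes and of AFG3L2 were also lost without Ctrl. replicate 1, Ctrl. replicate 3 or 20 nM replicate 2, with adjusted p of up to 0.229 (CLPP). Without surrogate variables these calls were lost as well. With the replicate block their trends were 0.34 (CLPP, adjusted p = 0.0658), 0.27 (PHB1, 0.0621 in the same test) and 0.30 (PRELID1, 0.0682), again not past the threshold. CLPP was at 106.5 CPM in the third 20 nM library and between 61.93 and 75.55 CPM in the others. AFG3L2, PRELID1 and the regulator SPIRE1 overlap TUBB6, MXD3 and PSMG2 in the annotation.

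DELE1, which is cut by OMA1 and relays mitochondrial stress to the cytosol, was the single gene of this list called lower in the trend. It measured 76.27, 73.36 and 72.47 CPM in Ctrl., 69.29, 68.07 and 67.15 CPM at 10 nM, and 68.05, 63.61 and 64.38 CPM at 20 nM, with Ctrl. above both others (-0.16 per 20 nM, SE 0.0476, adjusted p = 0.0365). The call held in 15 of 19 alternatives and was lost without Ctrl. replicate 1 or 20 nM replicate 2 (adjusted p up to 0.127). It was also lost without surrogate variables and in DESeq2. Its 3′ UTR held a pair of 7-mers (chr5:141938760-141938766 and chr5:141941397-141941403, plus strand, exon 12 of 12), shown for comparison with those of SENP5. The upstream site of DELE1 began at base 1 of the 3′ UTR, directly after the stop codon, whereas the sites of SENP5 began at bases 559 and 650.
DELE1, upstream site: gttttggctaaGGTGAGAtaaaacatagt
DELE1, downstream site: atggcagagtcGTGAGAAaggtgttgtca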

How the data were processed

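The authors mapped reads with salmon onto GRCh38.p13 (Ensembl annotation 107), summed them by gene symbol and removed low genes. The deposited table holds estimated counts (88.75% of values are not whole). The authors' deposited log2 table and their tables of comparisons (log2 fold changes, p-values) were not used.

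Rounded counts of all 9 libraries entered edgeR 4.0.16 (R 4.3.3): TMM scaling, filterByExpr (0 genes removed), surrogate variables from sva 3.50.0 (num.sv, seed 1, held between 1 and 3, giving 1 by group and 2 by concentration), the quasi-likelihood test, and Benjamini-Hochberg adjustment over 14943 genes, threshold 0.05. DESeq2 1.42.0 was an alternative. CPM are not corrected for surrogate variables, so their ratios can differ from fitted fold changes. Positions and 3′ UTRs are from GENCODE 44 (14105 genes matched by identifier, 768 by symbol, 70 unmatched). Some seed matches are not reported here.

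All 10 genes were named, and from each of 2 lists up to 8 genes past the threshold of the trend by smallest adjusted p, and the 3 profiles nearest to the gene with the smallest p. Members and lists were chosen with earlier results of these data known. Replicate numbers come from the titles: deviations of same-numbered libraries correlated between 0.107 and 0.185 for the pairs with Ctrl., each over 0.1, so the numbers were taken to pair these libraries, and between 0.0288 and 0.176 for 10 nM with 20 nM. The scripts were tested on simulated counts.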

Additional observations from a re-analysis of the deposited data

Results flagged for a closer look

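PMPCB, the catalytic subunit of the matrix processing peptidase, differed between the 2 concentrations of the mimic. Its log2 fold change between 20 nM and 10 nM was 0.2105 (SE 0.0445, adjusted p = 0.0243 in edgeR's quasi-likelihood test). PMPCB overlaps DNAJC2 and PSMC2 in the annotation. It was drawn out because this is a direct test of the difference between the effects of both concentrations against the shared Ctrl. group, which were 0.10 (SE 0.0419, adjusted p = 0.331) at 10 nM and 0.31 (SE 0.047, adjusted p = 0.00109) at 20 nM. The call between 20 nM and 10 nM held in 13 of 19 alternatives, with log2 fold changes of 0.194 to 0.247 and adjusted p of 0.00222 to 0.187. It was lost with the replicate block (0.246, adjusted p = 0.108), without surrogate variables, and without 10 nM replicate 1, 10 nM replicate 3, 20 nM replicate 1 or 20 nM replicate 2.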

How the results depend on the processing

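Of 780 values of the 10 genes under the alternatives, 771 kept their side of the threshold and 9 came to pass it, with no called value changing direction, while 90 uncalled values changed sign. The DESeq2 values of MIEF2 and OMA1 at 10 nM, which had no adjusted p, were counted as kept. The count of the 10 genes past the threshold of the dose trend was 0 and became 1 (MIEF1) with the filter of at least 1 CPM in 3 libraries, the other number of surrogate variables, the likelihood-ratio test and the replicate block. The fit with that filter also took 1 surrogate variable in place of 2, the number that alone gives the same call. It ran from 0 to 2 when 1 library was left out, the 2 being MIEF1 and FIS1 without 20 nM replicate 1. At 20 nM against Ctrl. the count became 1 when only those groups entered the fit, and ran from 0 to 1 when 1 library was left out. The replicate block changed no other call of the 10 genes, and of the called regulators, proteases and scaffolds it lost CDK1, SPIRE1, CLPP, PHB1 and PRELID1 in the trend. Of the 42 regulators, proteases and scaffolds, 16 were past the threshold of the trend and 9 without surrogate variables, and 9 to 20 when 1 library was left out (9 without Ctrl. replicate 1, 10 without Ctrl. replicate 3, 10 without 20 nM replicate 2, 12 without 20 nM replicate 3). The share of all genes moved as well, from 17.5% to 8.27% without surrogate variables, and between 9.16% and 22.2% when 1 library was left out. The number of surrogate variables by concentration was itself unstable, at 1, 2 and 3 in 6, 12 and 2 of 20 random seeds. Over all genes, 97 passed at 10 nM, against 3 with the replicate block, 5 without surrogate variables, 218 in DESeq2, 390 with the likelihood-ratio test, 1070 with only those groups in the fit and 1318 without 20 nM replicate 3, the last pair with 2 surrogate variables in place of 1. At 20 nM, 2074 passed, against 954 without surrogate variables and 4370 without 20 nM replicate 3 with 2 surrogate variables. In the trend, 2620 passed, against 1236 without surrogate variables. In a fit added after seeing the data, without 20 nM replicate 3 and with 1 surrogate variable, 160 passed at 10 nM and 2656 at 20 nM, so most of the rise without that library came with the second surrogate variable. The cause of the other shifts was not tested. Depth limits OMA1 most.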
